A study of Mus musculus with 7 samples.

Results

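The proteasome is the protease that degrades proteins marked with ubiquitin. Its catalytic core is a stack of alpha rings (Psma genes) around beta rings (Psmb genes), of which Psmb5, Psmb6 and Psmb7 carry the active sites. A cap opens the core: its ATPases (Psmc genes) unfold the substrate and its other subunits (Psmd genes) bind and remove ubiquitin. Activators (Psme genes) can bind in place of the cap. In interferon-stimulated cells Psmb8, Psmb9 and Psmb10 replace the 3 catalytic subunits and form the immunoproteasome. In the epithelium of the small intestine, which renews itself continuously, the proteasome is part of the general protein turnover of every cell type.

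The genes described are the constitutive proteasome subunits, chosen by name: every gene of the deposited table called Psma, Psmb, Psmc, Psmd or Psme with a number, without Psmb8, Psmb9 and Psmb10. This gave 40 of 38293 genes, of which 16 code for core, 20 for cap and 4 for activator subunits. RNA came from ileal scrapings, which contain epithelium with lamina propria and leave the muscle behind, of male C57BL/6NRJ mice that were 8 weeks old. After 1 week on the control diet, the mice received a purified, low calcium AIN93G high fat diet (40% of energy from fat) for 2 weeks. Its total cystine was 0.38% (normal cys, n = 4) or 0.08% (low cys, n = 3, alanine in place of the added L-cystine). The mice were housed individually and fasted before the tissue was taken, and each library came from 1 mouse. The comparison asked whether dietary cystine restriction changed gene expression in the small intestine. Normal cys 1 to 4 are the libraries titled X17SI4, X32SI4, SI9 and X1SI4, and low cys 1 to 3 those titled X23SI4, X26SI4 and X10SI4.

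No constitutive subunit gene differed between the diets by the test. The 38 subunit genes that passed the filter on low counts differed little between the diets and little between mice. The largest estimates were 0.84-fold (Psmd4, a ubiquitin receptor of the cap) and 1.08-fold (Psme3, the gamma subunit of an activator). The direction in which the subunits leaned depended on how the libraries were scaled. Over all 7 libraries, Psme1 and Psme2 varied most.

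Stretches before the start site are shown for 3 subunit genes, picked by the letters TGACNNNGC (in capitals). These letters are a form of the element that Nrf1 (Nfe2l1) and Nrf2 (Nfe2l2) are known to bind. A match on either strand had to lie wholly within the 60 bases before the start, and each of the 3 lies on the gene's own strand. Psmb5 and Psmb6 are catalytic, and Psmd9 had the lowest level of the cap per length. The catalytic gene Psmb7 is not among the 3. The stretches are from RefSeq promoters on GRCm38.p6, on the minus strand at chr14:54617996-54618055 (Psmb5), and on the plus strand at chr11:70525297-70525356 (Psmb6) and chr5:123228130-123228189 (Psmd9). The matches lie from -47 to -39, from -9 to -1 and from -31 to -23 relative to the start site.
Psmb5: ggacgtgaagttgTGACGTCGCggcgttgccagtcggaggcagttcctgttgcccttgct
Psmb6: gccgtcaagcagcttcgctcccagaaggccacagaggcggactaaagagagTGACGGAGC
Psmd9: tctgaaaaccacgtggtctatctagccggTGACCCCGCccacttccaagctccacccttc
Promoters of 33 of the 40 genes were matched, from 250 bases before to 50 bases after the start. TGACNNNGC, searched on both strands, was in those of 6 of them (18.2%), the others being Psmc6, Psmd12 and Psme4, against 14% of all genes with a promoter. The letters CCAAT, searched in the same way, were in 13 of 33 (39.4%) against 41.1% of all genes. No subunit promoter held both. A match of letters is a description and not a binding site.

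The libraries held between 19712355 and 22412703 counts on the normal cystine diet and between 14888760 and 21942518 on the low cystine diet. Every tested subunit gene had between 240 and 5362 counts in each library. Markers of the expected epithelium were present: all 10 enterocyte, 6 goblet and 6 Paneth cell markers passed the filter, while 3 of 6 pancreatic acinar markers were at 0 in every library. Some marker lists moved with the diet. In CPM (counts relative to the size of the library, here scaled by TMM, which assumes that most genes do not differ), the summed enterocyte markers lay between 28480 and 40106 on the normal and between 18091 and 28173 on the low cystine diet, and 9 of 10 had a lower estimate on the low cystine diet. The summed stromal markers lay between 9.79 and 16.7 against 19.1 and 28.2 CPM, and the B and plasma cell markers between 38.8 and 127 against 155 and 230 CPM. These groups did not overlap. Of the 7 tested stromal markers 6 had a higher estimate. Of the 5 tested B and plasma cell markers 3 were higher and 2 lower, and the sum rested on Igj, the joining chain of secreted antibodies (32.8 to 102 against 124 to 198 CPM), the 1 marker of this list without overlap. Without TMM the enterocyte groups overlapped (27672 to 37487 against 20218 to 29385 CPM). The proliferation markers (129 to 347 against 219 to 389 CPM) and Paneth cell markers (762 to 5036 against 3112 to 5616 CPM) overlapped. So did the smooth muscle markers (2.34 to 12.1 against 5.63 to 38.2 CPM, 6 of 6 higher), which were thus present at a low level, and the macrophage markers (16.2 to 67.0 against 59.6 to 69.2 CPM, 8 of 8 higher). The pancreatic acinar sum did not overlap with TMM (4.49 to 5.31 against 3.67 to 4.25 CPM) and overlapped without it, and it was almost wholly Cela1. The part of these lists in the subunit values was not tested. In such scrapings, fewer cells of a type and less RNA per cell cannot be told apart. The sample labels give no batch. The study's methods name either RNeasy columns or the Nucleospin kit for purifying the RNA. Whether the kit differed between these libraries is not stated.

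Over the 14869 genes tested, 0 (0%) had an adjusted p under 0.05 in edgeR's quasi-likelihood test (Benjamini-Hochberg), whereas 396 (2.66%) and 421 (2.83%) had an unadjusted p under 0.05 with higher and lower values on the low cystine diet. Of the 38 subunit genes 0 had an unadjusted p under 0.05 in either direction, and the smallest edgeR adjusted p was 0.794. DESeq2 called 16 genes over the whole table and 0 subunit genes. The 95% intervals of the log2 fold changes of all 38 included 0 and reached from -0.55 to 0.43.

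**Figure D1:**
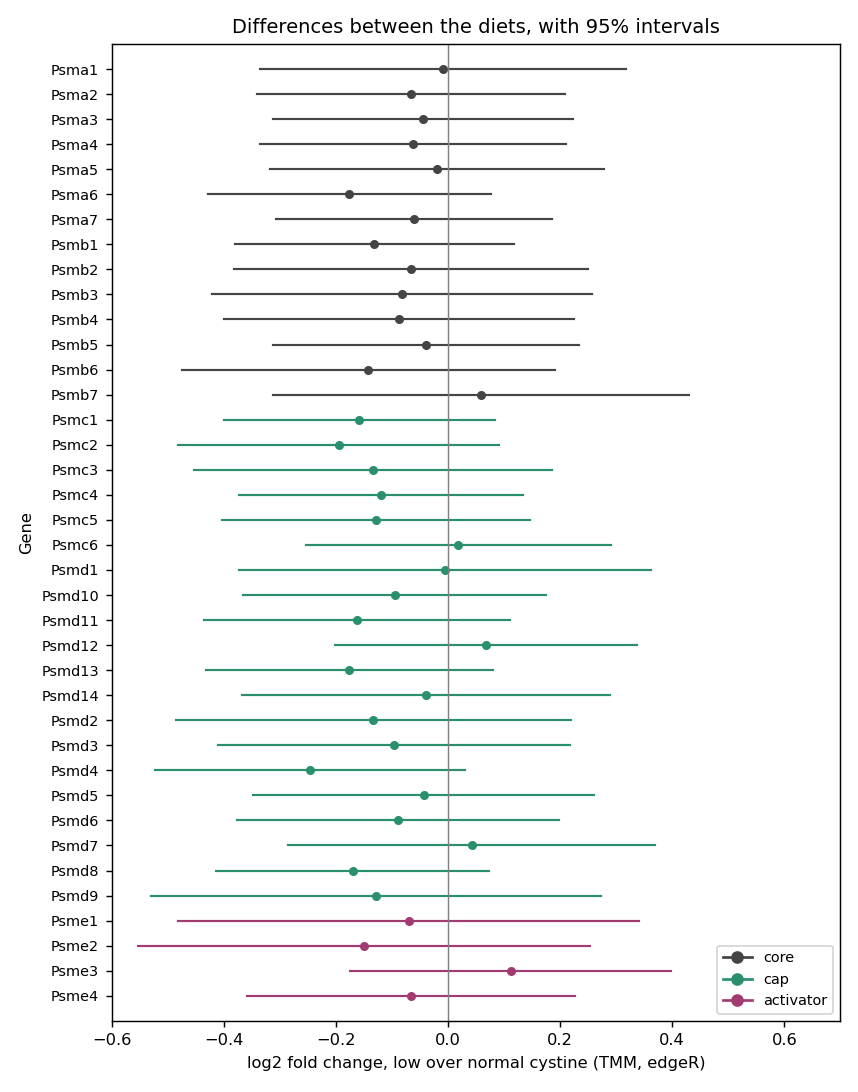
Each point is the log2 fold change of a tested subunit gene (low over normal cystine, TMM scaled, edgeR), with its 95% interval as a line, coloured by particle. The estimates lie between -0.25 (Psmd4) and 0.11 (Psme3), and every interval crosses 0.

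With TMM scaling, 33 of the 38 estimates were lower and 5 (13.2%) higher on the low cystine diet, against 51.2% higher over all genes. The median log2 fold change was -0.08 (core -0.06, cap -0.12, activators -0.07), beside 0.01 over all genes tested. When the counts were scaled to the total count alone, 29 estimates (76.32%) were higher and 9 lower, against 71.78% higher over all genes. The subunit median was then 0.05. The median of all genes was then 0.15, and relative to it the subunit median was -0.10, close to the -0.09 with TMM. Under both scalings 5 of 38 subunit genes lay above the median of all genes. The subunit median thus lay below the median of all genes under either scaling, and on which side of 0 it lay followed the scaling.

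As a percentage of all counts, the subunit genes took 0.319, 0.331, 0.246 and 0.260% of normal cys 1 to 4 and 0.304, 0.304 and 0.289% of low cys 1 to 3. The means were 0.289% ± 0.0424 (SD, n = 4) and 0.299% ± 0.00845 (SD, n = 3). The low cys libraries lay inside the range of the normal cys libraries. The core took 0.108% ± 0.0162 of the counts on the normal and 0.113% ± 0.00526 on the low cystine diet, the cap 0.129% ± 0.0179 and 0.131% ± 0.00298, and the activators 0.0529% ± 0.00942 and 0.0550% ± 0.00476. These differences are smaller than the SD of the normal cys libraries. With TMM scaling the sums pointed the other way, to 1119 ± 113 and 1064 ± 38.2 CPM for the core, 1337 ± 118 and 1236 ± 40.1 for the cap, and 550 ± 73.9 and 521 ± 66.9 for the activators.

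**Figure D2:**
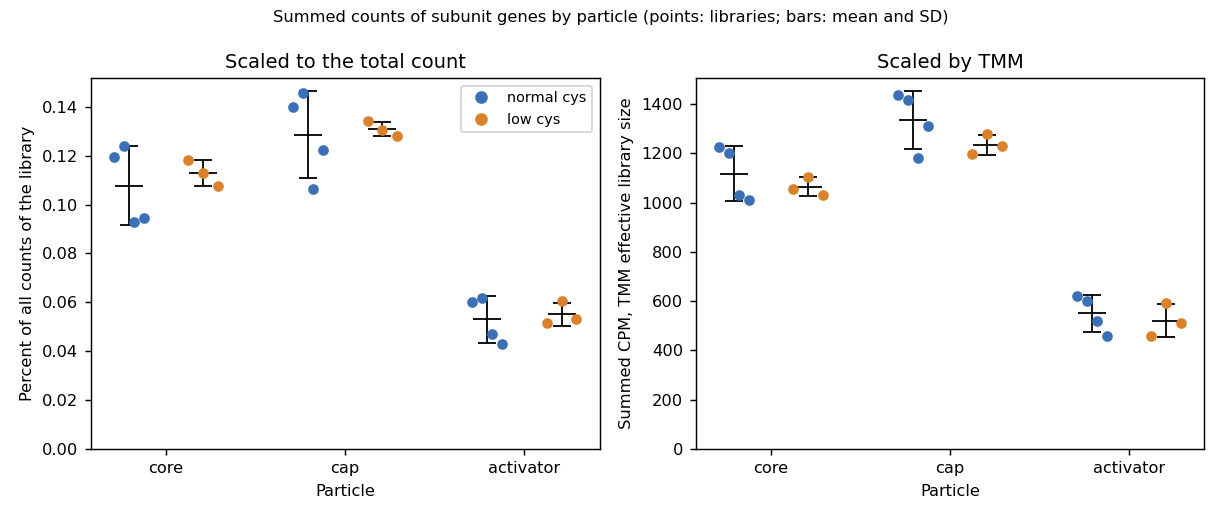
Summed counts of the core, cap and activator genes in each library (points), with mean and SD, as a percentage of all counts (left) and in CPM with TMM scaling (right). The low cys means lie slightly above the normal cys means on the left and slightly below them on the right, within the spread of the normal cys libraries on both.

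The spread among the normal cys libraries was larger than the difference between the means of the diets. Of the 38 genes, 35 lay above their own mean over the libraries in normal cys 1 and 31 in normal cys 2, against 5 in normal cys 3 and 14 in normal cys 4. In low cys 1 to 3 the numbers were 9, 18 and 3. Of the 14 core genes, 1 lay above its mean in normal cys 3 and 1 in normal cys 4, where the cap genes numbered 3 and 12 of 20. In normal cys 1 to 4 the enterocyte markers summed to 28480, 29002, 38357 and 40106 CPM and the proliferation markers to 347, 258, 150 and 129 CPM. Within the normal cystine diet, the libraries with the lowest core levels thus had the highest enterocyte and the lowest proliferation markers. On the low cystine diet neither marker list followed this order in full. Low cys 1 to 3 had core sums of 1056, 1106 and 1031 CPM and enterocyte markers of 18091, 26367 and 28173 CPM. Their proliferation markers summed to 389, 219 and 343 CPM. Low cys 3 had the lowest core sum and the highest enterocyte markers, but low cys 1, with the lowest enterocyte markers, did not have the highest core sum. The mitochondrial genome took 10.98% of the counts in normal cys 3 and 6.08 to 8.43% in the other libraries. The part of these measures was not tested.

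**Figure D3:**
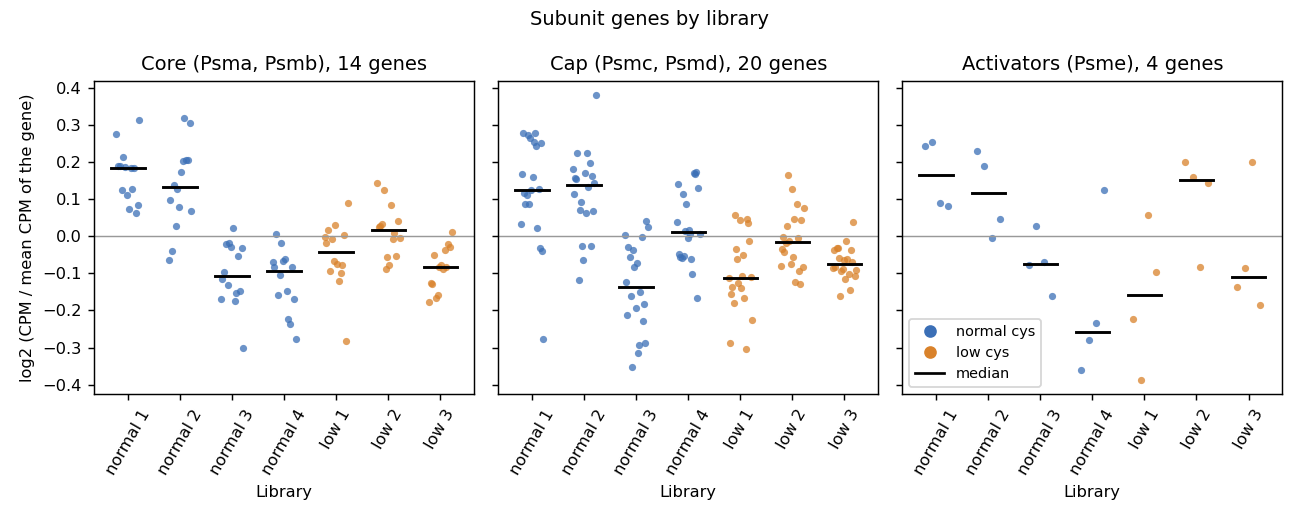
Each point is a gene's CPM in a library relative to its mean over the 7 libraries, on a log2 scale, for core, cap and activator genes, with the median as a bar. Most core and cap genes lie above their mean in normal cys 1 and 2 and below it in normal cys 3, while in normal cys 4 the cap genes lie on both sides and the 4 activators differ from each other.

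The subunit genes varied little between mice. The median SD of their log2 CPM over the 7 libraries was 0.14, against 0.21 for the 7169 genes at or above the lowest subunit level and 0.29 for all genes tested. Of these 7169 genes, 20.02% had a smaller SD than the subunit median. Within the diets the medians were 0.14, 0.21 and 0.29. Psmd10, a chaperone of cap assembly, varied least of all subunits (SD 0.07) and Psme2, the beta subunit of the PA28 activator, varied most (0.25).

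In the alpha ring, which gates the entry to the core, the 7 tested genes had estimates between -0.18 (Psma6) and -0.01 (Psma1). Psma6 was at 91.6, 87.9, 79.5 and 79.4 CPM in normal cys 1 to 4 and at 76.8, 75.7 and 72.1 CPM in low cys 1 to 3. Every low cys library was below every normal cys library, with a log2 fold change of -0.18 ± 0.11 (SE) and an exact two-sided permutation p of 0.0857. Psma1 was at 97.9, 77.4, 71.9 and 77.1 against 80.8, 89.4 and 71.5 CPM. Its groups overlapped widely, and the log2 fold change was -0.01 ± 0.14 (SE). Psma3 (94.3, 80.5, 77.4 and 83.2 against 83.7, 84.4 and 75.7 CPM) had the lowest level of the core per length, with the longest counted transcript of the tested core genes. Its groups overlapped too.

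In the beta ring, Psmb1, a non-catalytic subunit, had the highest level of the core per length. It was at 114, 122, 110 and 104 CPM in normal cys 1 to 4 and at 103 CPM in each low cys library. The groups did not overlap, but the gap was narrow, with a log2 fold change of -0.13 ± 0.11 (SE) and an exact two-sided permutation p of 0.0571. The catalytic subunits overlapped between the diets. Psmb5, which cuts after hydrophobic residues, was at 47.1, 52.0, 40.7 and 42.6 against 45.2, 43.5 and 44.4 CPM. Psmb6, which cuts after acidic residues, was at 77.6, 90.5, 71.6 and 65.1 against 60.2, 75.3 and 71.7 CPM. Psmb7, which cuts after basic residues, was at 73.6, 62.0, 48.1 and 48.9 against 63.05, 59.0 and 59.6 CPM. Their log2 fold changes of -0.04 ± 0.12, -0.14 ± 0.15 and 0.06 ± 0.16 (SE) were within their standard errors. Psmb7 was the 1 core gene with a higher estimate.

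In the ATPase ring of the cap, Psmc1 was at 86.9, 96.3, 85.1 and 87.2 CPM in normal cys 1 to 4 and at 78.5, 80.4 and 80.04 CPM in low cys 1 to 3. The groups did not overlap, with a log2 fold change of -0.16 ± 0.11 (SE) and an exact two-sided permutation p of 0.0286, the smallest that the 35 arrangements of the libraries can give, unadjusted among 38 genes. Psmc2 had the lowest estimate of the ring, at 68.8, 66.3, 56.2 and 67.5 against 50.1, 59.8 and 59.7 CPM (-0.20 ± 0.13, SE), and its groups overlapped. Psmc6 had the highest (0.02 ± 0.12, SE), at 71.6, 61.1, 59.3 and 71.9 against 69.0, 67.7 and 63.8 CPM. Psmc5, the highest of the cap per length, was at 93.6, 103, 84.8 and 84.7 against 77.8, 87.1 and 86.4 CPM.

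Among the other cap subunits, Psmd4 had the lowest estimate of all subunits. It was at 75.3, 85.0, 74.1 and 83.5 CPM in normal cys 1 to 4 and at 60.03, 73.9 and 67.1 CPM in low cys 1 to 3. Low cys 2 lay just below normal cys 3, so the groups did not overlap, with a log2 fold change of -0.25 ± 0.12 (SE), an edgeR adjusted p of 0.794 and an exact two-sided permutation p of 0.0571. Psmd8, a scaffold subunit of the cap's lid, was at 95.02, 108, 101 and 107 against 90.5, 92.2 and 90.8 CPM, again without overlap (-0.17 ± 0.11, SE, exact two-sided permutation p = 0.0571). Psmd12, another lid subunit, had the highest estimate of the cap (0.07 ± 0.12, SE), at 39.9, 35.1, 32.05 and 36.6 against 37.8, 40.03 and 35.03 CPM. Psmd9, a chaperone that helps to assemble the ATPase ring and leaves the finished cap, was at 13.6, 21.4, 16.8 and 16.5 against 14.1, 17.4 and 15.5 CPM.

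In all, the low cys libraries lay below every normal cys library for 5 of the 38 genes (Psma6, Psmb1, Psmc1, Psmd4 and Psmd8) and above for 0. Over all genes tested, 3.51% lay below and 3.32% above. The same 5 genes did so with DESeq2's size factors. When scaled to the total count alone, 0 of the 38 did in either direction, beside 1.05% below and 7.2% above over all genes.

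Of the activators, Psme1 and Psme2 form the PA28 ring, which is known to be induced by interferon, Psme3 forms a nuclear ring of its own, and Psme4 codes for the activator PA200. Psme1 was at 200, 199, 160 and 132 CPM in normal cys 1 to 4 and at 145, 195 and 154 CPM in low cys 1 to 3. Psme2 was at 255, 243, 217 and 176 against 163, 238 and 201 CPM. Both were high in normal cys 1, normal cys 2 and low cys 2 and low in normal cys 4 and low cys 1, on either diet, and their log2 fold changes were -0.07 ± 0.18 and -0.15 ± 0.18 (SE). Psme3 was at 74.9, 70.2, 67.1 and 59.8 against 73.2, 66.4 and 80.9 CPM (0.11 ± 0.13, SE). Psme4 was at 89.4, 87.2, 75.5 and 92.1 against 79.0, 93.3 and 74.3 CPM (-0.07 ± 0.13, SE). Neither of the latter separated the diets.

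The immunoproteasome genes, which are not among the 40, followed the libraries rather than the diets. Psmb8 was at 178, 150, 93.9 and 42.8 CPM in normal cys 1 to 4 and at 81.2, 144 and 96.4 CPM in low cys 1 to 3. Psmb9 was at 85.8, 75.02, 47.9 and 26.7 against 44.9, 78.7 and 50.2 CPM, and Psmb10 at 187, 189, 143 and 78.4 against 134, 170 and 139 CPM. All 3 were lowest in normal cys 4 and 0 of 3 had an unadjusted p under 0.05. The median SD of their log2 CPM was 0.59. The ratio of their summed counts to those of Psmb5, Psmb6 and Psmb7 was 2.27, 2.02, 1.78 and 0.945 in normal cys 1 to 4 and 1.54, 2.21 and 1.63 in low cys 1 to 3. The 20 interferon response genes summed to 3799, 3073, 3141 and 2515 against 2094, 3258 and 2370 CPM. These sums were highest in normal cys 1 and low cys 2, where Psme1 and Psme2 were high too. The sum of normal cys 2 lay below that of normal cys 3, although Psme1 and Psme2 were higher in normal cys 2. The part of the interferon genes in the activator values was not tested.

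**Figure D4:**
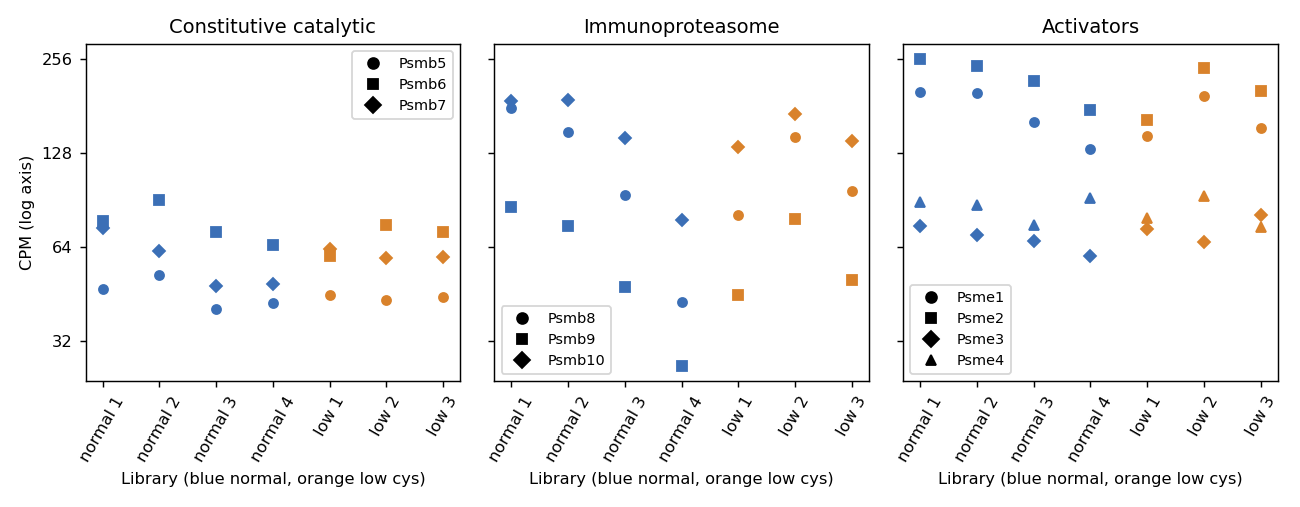
CPM (log axis) in each library of the constitutive catalytic genes, the immunoproteasome genes that replace them and the 4 activator genes, with normal cys libraries in blue and low cys libraries in orange. Psmb8, Psmb9 and Psmb10 range widely and are lowest in normal cys 4, while Psmb5, Psmb6 and Psmb7 stay within a narrower band.

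The ratios between the particles overlapped between the diets. The ratio of summed cap to core counts was 1.17, 1.18, 1.14 and 1.30 in normal cys 1 to 4 and 1.14, 1.16 and 1.19 in low cys 1 to 3. That of activator to core counts was 0.504, 0.498, 0.504 and 0.455 against 0.436, 0.536 and 0.495. Normal cys 4 had the highest cap ratio and the lowest activator ratio of its diet. These ratios were not tested.

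Per length, the levels of the subunits that stand in equal numbers in the finished particle were not equal in RNA. In CPM per kilobase of the counted principal transcript, averaged over the 7 libraries, the 14 tested core genes had a median of 78.5. They ranged 3.60-fold, from 29.1 (Psma3) to 105 (Psmb1). The low value of Psma3 goes with its long transcript, 2846 bases against 766 (Psmb3) to 1239 (Psma5) for the other tested core genes. In CPM alone, its normal cys mean of 83.8 was close to the 84.6 of Psma6. The next lowest core gene per length was Psma5 (48.2). Psmb5 was at 51.7, Psmb6 at 91.65 and Psmb7 at 51.0. The 20 cap genes had a median of 34.3, and the 3 lowest were the assembly chaperones Psmd9 (6.33), Psmd5 (11.6) and Psmd10 (12.8). The other 17 cap genes ranged 3.48-fold, from 19.2 (Psmd12) to 67.0 (Psmc5). Among the activators Psme2 was at 222, Psme1 at 152, Psme3 at 26.4 and Psme4 at 13.0 CPM per kilobase. The order rests on the transcript taken as the length. With all annotated exon bases of each gene the core median was 47.9 and the cap median 20.01. Psma3 and Psmb1 stayed the lowest and highest of the core, but the exon bases of Psma3 (3894) include the same long transcript. Psmd9 stayed the lowest of the cap and Psme2 the highest activator, while Psmd8 (64.6) took the place of Psmc5 as the highest of the cap. The chaperones were then no longer the 3 lowest of the cap, since Psmd11 (9.57) and Psmc2 (12.2) lay below Psmd10 (12.5).

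**Figure D5:**
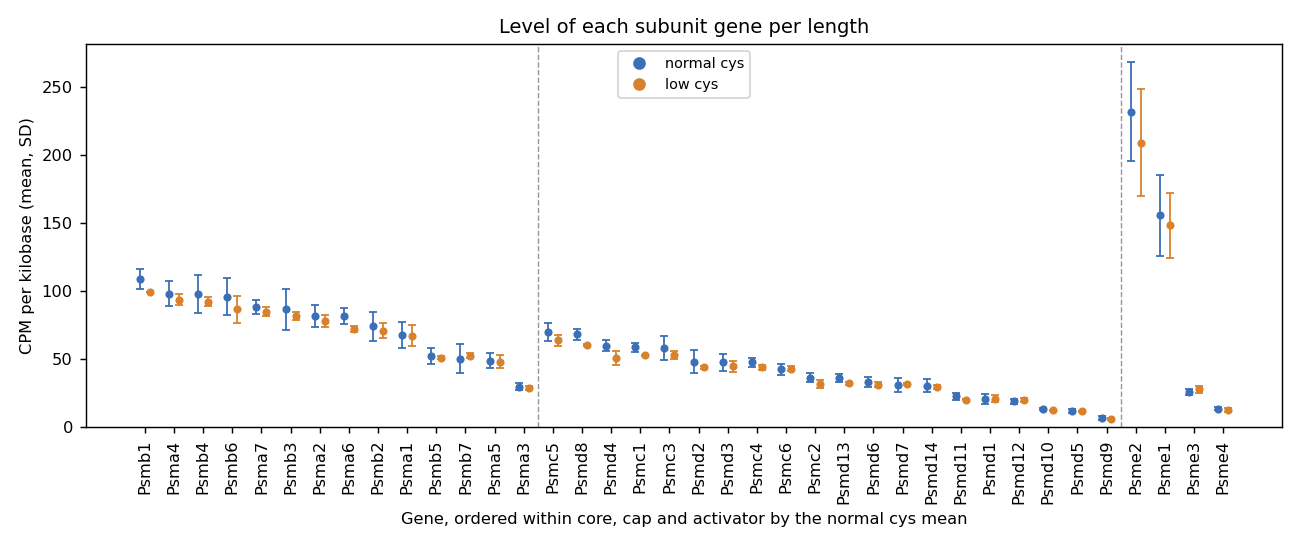
CPM per kilobase (mean and SD of the libraries of each diet) of every tested subunit gene, ordered within core, cap and activators. The 2 diets lie close together for each gene, while genes of the same particle differ several-fold.

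Psma8, a testis form of an alpha subunit, and Psmb11, a thymus form of a beta subunit, failed the filter. Psma8 had 2 counts in normal cys 2, 1 in low cys 3 and 0 elsewhere, and Psmb11 had 1 count in low cys 1 and 0 elsewhere. A count of 0 allows up to 3 counts, or 0.134 to 0.201 CPM in these libraries. Neither was detectable at a level that could be compared.

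The 40 genes lie on 16 chromosomes, and 8 are on chromosome 11. Psme1 (chr14:55578123-55581529) and Psme2 (chr14:55587441-55591113, GRCm38) lie 5912 bases apart, and Psmb5 (chr14:54614120-54617995) and Psmb11 (chr14:54625310-54629556) 7315 bases apart. Of the 40, 15 shared no 50-base stretch of their transcripts with another gene. For 9 more than 10% was shared, most for Psmb5 (54.1%), Psma5 (50%), Psme2 (28.3%, with its near-identical copy Psme2b) and Psmd9 (24.9%). The counts of these genes are uncertain to the extent that the counting split or dropped such reads. Psme2b, listed as Psme2b-ps, had 630 to 1029 counts itself, and adding these to Psme2 left its log2 fold change at -0.15.

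Outside the immunoproteasome and interferon lists, 38 of 39 other genes of the pathway were tested, with 19 higher and 19 lower estimates, and 0 had an unadjusted p under 0.05. Of the 5 chaperones that assemble the core, 4 had higher estimates under every scaling, up to 0.40 ± 0.32 (SE) for Psmg1, and Pomp, which is needed to finish the core, had the lower one (-0.23 ± 0.14, SE). Of the 10 tested associated proteins 5 were higher, of the 10 shuttle and segregase genes 5 and of the 6 ubiquitin genes 3. Of the 7 genes in the list of transcription factors 2 were higher. This list also holds Keap1, a regulator of Nrf2 that is not a transcription factor itself. Nfe2l1, the factor known to restore proteasome genes when the proteasome is inhibited, was at 120, 112, 93.2 and 111 against 112, 127 and 105 CPM (0.07 ± 0.13, SE). Scaled to the total count alone, 8 of 10, 8 of 10, 3 of 6 and 6 of 7 of these lists were higher.

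Of the 20 interferon response genes 17 had lower estimates with TMM and 16 with the total count. With TMM 3 of the 20 had an unadjusted p under 0.05, all lower on the low cystine diet, beside 2.83% of all genes, and with the total count 1 of the 20 did, beside 0.847% of all genes. Irf7, a transcription factor of the interferon response, was at 174, 223, 157 and 160 CPM in normal cys 1 to 4 and at 83.1, 127 and 114 CPM in low cys 1 to 3, without overlap (-0.72 ± 0.19, SE, edgeR adjusted p = 0.794). Oas1a, an RNA sensor, was at 69.4, 110, 44.5 and 52.4 against 40.6, 38.3 and 37.9 CPM, also without overlap with TMM (-0.83 ± 0.29, SE). When scaled to the total count alone, low cys 1 lay above normal cys 3 and its groups overlapped. Isg15, a ubiquitin-like modifier, was at 31.8, 29.3, 23.1 and 13.0 against 8.28, 15.7 and 16.8 CPM, with overlap (-0.84 ± 0.34, SE). None of the 3 passed the adjustment.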

How the data were processed

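The authors deposited raw read counts per gene, without normalization, for 7 ileal libraries (TruSeq stranded polyA, paired-end reads of 50 bases). Per the study's methods and the submitters' processing notes, reads were trimmed with Trim Galore (0.6.5), SortMeRNA took out rRNA reads, STAR (2.73a as the notes write it) aligned the remainder to GRCm38, and featureCounts counted them on the exons of Ensembl release 70. The strand setting and the treatment of reads with several matches are not given in the sources used here. Reads shared between near-identical genes can therefore be split, dropped or counted in either. Groups came from the sample labels, and the replicate numbers are only names.

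Genes were filtered with filterByExpr (minimum count 10, minimum total count 15), scaled by TMM and compared by the robust quasi-likelihood F-test in edgeR (4.0.16, R 4.3.3), with Benjamini-Hochberg adjustment over 14869 genes and a prior count of 2. DESeq2 (1.42.0) and limma (3.58.1) were alternatives, as were other scalings, filters and leaving out each library. The methods were tested on simulated data. Exact permutation tests covered the 35 arrangements. No pair of libraries within a diet was a duplicate, and pairs across the diets were not examined. The deviation between mice (biological coefficient of variation) was 25.5%. Levels per kilobase used the exon bases counted for the GENCODE M21 principal transcript. Promoters came from RefSeq (GRCm38.p6), and gene positions from the deposited table. The subunits, the lists and the naming rule were chosen with earlier results of these data known. Values in every library were given for catalytic subunits, activators, genes without overlap, and the extremes of each ring and of the levels per kilobase. TMM scaling of the shares, the exon length as deposited and the sum of Psme2 and Psme2b-ps were chosen after seeing the data.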

Additional observations from a re-analysis of the deposited data

Results flagged for a closer look

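The ratio of activator to core counts in normal cys 4 was 0.455, while normal cys 1 to 3 lay between 0.498 and 0.504. Its gap to the nearest library was 0.875 of the range of the 4 libraries, above Dixon's 95% critical value for 4 samples. Of 47 values examined this way 1 passed, where about 2.35 would by chance, and the low cys libraries spanned 0.436 to 0.536.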

How the results depend on the processing

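No alternative gave a subunit gene an unadjusted p under 0.05. DESeq2 called 16 genes over the whole table instead of 0. With the total count alone, 29 subunit estimates were higher, the median log2 fold change was 0.052 and 0 genes were without overlap, and the estimates of Psma1 (0.13), Psma3 (0.10), Psmb1 (0.0096), Psmb5 (0.10), Psmc5 (0.0078), Psmd9 (0.0057), Psme1 (0.060) and Psme4 (0.073) turned positive because that scaling moves all genes. With at least 10 counts in every library Psma1 was at 0.0015. Leaving out 1 library at a time, the called genes over the table numbered 0 to 1, the pathway genes with an unadjusted p under 0.05 2 to 6 (3 with all), the higher subunit estimates 2 to 12 (5 with all) and the genes without overlap 3 to 8. The higher estimates numbered 11 and 12 without normal cys 1 and 2, 2 without normal cys 3, and 8 and 9 without low cys 1 and 3. Over all genes, 50.66 to 52.96% were higher in these fits. Genes without overlap, all lower on the low cystine diet, numbered 3 without normal cys 2, beside 5.99% of all genes below. They numbered 8 without normal cys 3, beside 4.84% of all genes below. Over all fits this share ranged from 4.2 to 9.39%. The pathway genes (61 tested with all libraries) numbered 5 without normal cys 1, where 1764 of all 14786 genes had an unadjusted p under 0.05. They numbered 6 without normal cys 4 (834 of 14751 genes) and 6 without low cys 2 (958 of 15208). With all libraries 817 of 14869 genes did, and without low cys 1 258 of 15076. The pathway count did not always follow that of the whole table. Without normal cys 2 it was 2, beside 906 of 14679 genes, and without normal cys 3 it was 2, beside 404 of 14742. The median ranged from -0.14 to -0.030. Low minus normal shares ranged from 0.000251 to 0.0105 percentage points for the core, from -0.00515 to 0.00800 for the cap and from -0.00121 to 0.00504 for the activators. Estimates that changed sign ranged from -0.068 to 0.096 for Psma1, -0.087 to 0.018 for Psma3, -0.095 to 0.047 for Psmb5, -0.029 to 0.19 for Psmb7, -0.034 to 0.062 for Psmc6, -0.22 to 0.016 for Psmd9 and -0.19 to 0.023 for Psme1. With TMM library sizes, an alternative chosen after seeing the data, the share differences were -0.00542, -0.0101 and -0.00285 percentage points. The cause of the other shifts was not tested. No paired analysis was possible because the replicate numbers come from no label. With 3 and 4 mice the intervals still allow changes of the size shown in the report.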

Other observations

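Ubb, which codes for ubiquitin, was at 3088, 2980, 3607 and 4491 CPM in normal cys 1 to 4 and at 2626, 2982 and 2962 CPM in low cys 1 to 3. It was highest in normal cys 3 and 4, the libraries of this diet in which the core subunits were lowest. On the low cystine diet this order was not seen, as low cys 2 had the highest core sum and, just above low cys 3, the highest Ubb. The log2 fold change of Ubb of -0.31 ± 0.19 (SE) did not pass the test. Whether these genes move together was not tested.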
